A study of Mus musculus with 12 samples.

Results

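The MYC, MXD and MAX network was followed at the level of messenger RNA in 12 RNA sequencing libraries of sorted mouse skin cells. The network was taken as 9 genes, namely Myc, Mycl, Mycn, Max, Mxd1, Mxd3, Mxd4, Mxi1 and Mnt, chosen by name among the 25965 genes listed. Of these, 8 were listed under the same symbol, and Mycl was listed under its older symbol Mycl1. The libraries fall into 6 groups of 2, from 3 compartments named HFSC (hair follicle stem cells), ORS (outer root sheath) and IFE. The labels gloss IFE as inner root sheath, whereas in skin biology these letters usually stand for interfollicular epidermis. The series asks how the epidermal growth factor receptor EGFR bears on hair shaft differentiation. The HFSC knockout group (L95 and L97) has the genotype EGFR_delta_LGR5, and the HFSC control group (L94 and L136) has EGFR_fl_fl. The ORS knockout group (E358 and E359) has EGFR_delta_ep, and the ORS control group (E341 and E344) has EGFR_fl_fl. The IFE knockout group (E358 and E359) has EGFR_delta_ep, and the IFE control group (E341 and E360) has EGFR_fl_fl. The control groups thus carry the floxed allele undeleted. Beyond these genotype names, the labels give neither the driver line nor the age of the animals. No label states that the libraries of a group came from separate animals, so each p-value is set against a spread between samples that may be technical only. The ORS controls differ from each other in sex-linked markers, as given below, so their spread may also hold a difference of sex.

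MYC proteins are basic helix-loop-helix transcription factors that bind DNA as heterodimers with MAX, classically at the E-box CACGTG, and recruit acetyltransferase complexes. MXD proteins, MXI1 and MNT compete for MAX, bind the same sites and recruit SIN3 and histone deacetylases. In mouse epidermis, MYC is known for driving stem cells out of quiescence, and MXD1 is known from differentiating layers.

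Reads in genes numbered 11.5 to 16.8 M in HFSC, 24.7 to 27.7 M in ORS and 11.4 to 13.2 M in IFE libraries. They were 26.9% to 28.9% of the library total in HFSC, 50.6% to 54.6% in ORS and 27.8% to 29.6% in IFE. Levels are given in CPM, the reads of a gene per 1e6 gene-assigned reads after TMM scaling. Egfr averaged 332.5 ± 3.44 CPM in HFSC knockout libraries and 410.1 ± 29.3 CPM in HFSC controls. It averaged 29.5 ± 36.4 CPM in ORS knockout libraries, with 3.72 CPM in E358 and 55.2 CPM in E359, and 261.8 ± 21.1 CPM in ORS controls. It averaged 0.160 ± 0.226 CPM in IFE knockout libraries and 135.5 ± 28.3 CPM in IFE controls (SD, n = 2 each). The libraries labelled HFSC knockout therefore kept most of the transcript. Bulge stem cell markers summed to 22880 to 40500 CPM in HFSC, 7195 to 9417 CPM in ORS and 4538 to 6114 CPM in IFE. The sum does not stand for each marker. In HFSC against ORS, 3 of the 6 had a fitted log2 fold change above 0, and the median was -0.01. Suprabasal keratinocyte markers summed to 238.4 to 321.1 CPM in HFSC, 151.8 to 380.0 CPM in ORS and 6284 to 8614 CPM in IFE. Of 6 inner root sheath markers, 3 had reads in each IFE library, Gata3 made up most of their sum, and Krt25 and Krt28 were at 0 in all 4. Melanocyte markers summed to 200.4 to 306.6 CPM in HFSC, 71.4 to 76.6 CPM in ORS and 14.5 to 29.4 CPM in IFE. Most of the HFSC sum was Mitf, and Tyr was at 0 in both HFSC controls and averaged 1.03 CPM in the HFSC knockout group. The part of these other cells in the results below was not tested, and in such bulk samples fewer cells of a type and less RNA per cell cannot be told apart.

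The 3 MYC paralogs were distributed differently over the compartments, and this held for all 12 libraries. Per kb of exon, Myc stood highest of them in each HFSC and IFE library and Mycn in each ORS library. Mycl was highest in IFE and close to absent in ORS. Differences were tested with limma's moderated test on log2(CPM + 0.5), with Benjamini-Hochberg adjustment over all genes tested and a threshold of 0.05. The added 0.5 makes the fold change of a low gene smaller than it is.

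Myc (chromosome 15, 61985391 to 61990374, plus strand) had 204.3 and 154.5 CPM in HFSC knockout libraries L95 and L97, and 180.0 and 211.4 CPM in HFSC controls L94 and L136. It had 0.186 and 5.62 CPM in ORS knockout libraries E358 and E359, and 8.79 and 5.07 CPM in ORS controls E341 and E344. It had 34.2 and 76.4 CPM in IFE knockout libraries E358 and E359, and 82.2 and 88.5 CPM in IFE controls E341 and E360. The compartments did not overlap, with HFSC highest and ORS lowest, and E358 was the lowest library in both ORS and IFE. On the log2 scale the difference was 5.60 ± 0.55 (SE) for HFSC against ORS (adjusted p = 1.96e-05, limma) and -4.12 ± 0.66 for ORS against IFE (adjusted p = 0.00209). For HFSC against IFE it was 1.49 ± 0.55, which narrowly missed the threshold (adjusted p = 0.0528). Without ORS knockout E358, which held 5 Myc reads, the first 2 differences were 4.81 and -3.33, and without ORS knockout E359 they were 6.39 and -4.90. All 4 values passed the test.

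Mycn (chromosome 12, 12936096 to 12941914, minus strand), the paralog best known from embryonic progenitors and neural tissue, showed the opposite pattern. It had 12.7 and 7.61 CPM in HFSC knockout libraries L95 and L97, and 4.54 and 9.12 CPM in HFSC controls L94 and L136. It had 121.7 and 103.6 CPM in ORS knockout libraries E358 and E359, and 106.0 and 153.0 CPM in ORS controls E341 and E344. It had 9.83 and 31.0 CPM in IFE knockout libraries E358 and E359, and 9.82 and 16.7 CPM in IFE controls E341 and E360. Every ORS library lay above every HFSC and IFE library, and HFSC and IFE overlapped. In log2 terms the difference was -3.82 ± 0.41 for HFSC against ORS (adjusted p = 3.59e-05, limma) and 2.95 ± 0.38 for ORS against IFE (adjusted p = 0.000567). HFSC and IFE did not differ past the threshold (-0.87 ± 0.41, 95% interval -1.77 to 0.03).

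Mycl (chromosome 4, 122995652 to 123002485, plus strand), the third transforming paralog, had 13.4 and 14.9 CPM in HFSC knockout libraries L95 and L97, and 3.23 and 18.7 CPM in HFSC controls L94 and L136. It had 0.446 and 1.06 CPM in ORS knockout libraries E358 and E359, against 0.676 CPM in ORS control E341 and no read in ORS control E344, where 3 reads would be 0.115 CPM. It had 40.2 and 28.2 CPM in IFE knockout libraries E358 and E359, and 44.7 and 33.9 CPM in IFE controls E341 and E360. IFE was above HFSC and HFSC above ORS in every library, and HFSC control L94 stood below the other HFSC libraries. Its log2 fold change was 3.53 ± 0.59 for HFSC against ORS (adjusted p = 0.000772, limma) and -5.25 ± 0.60 for ORS against IFE (adjusted p = 0.000247). For HFSC against IFE it was -1.72 ± 0.59 (adjusted p = 0.0377). That last call was lost under 10 of the 22 other settings tried, of which 6 leave out 1 library. Without HFSC control L94 it was -1.13 (adjusted p = 0.156) and without L136 -2.31, and the difference between HFSC and ORS was 4.12 and 2.94 without these libraries in turn, both called.

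**Figure D1:**
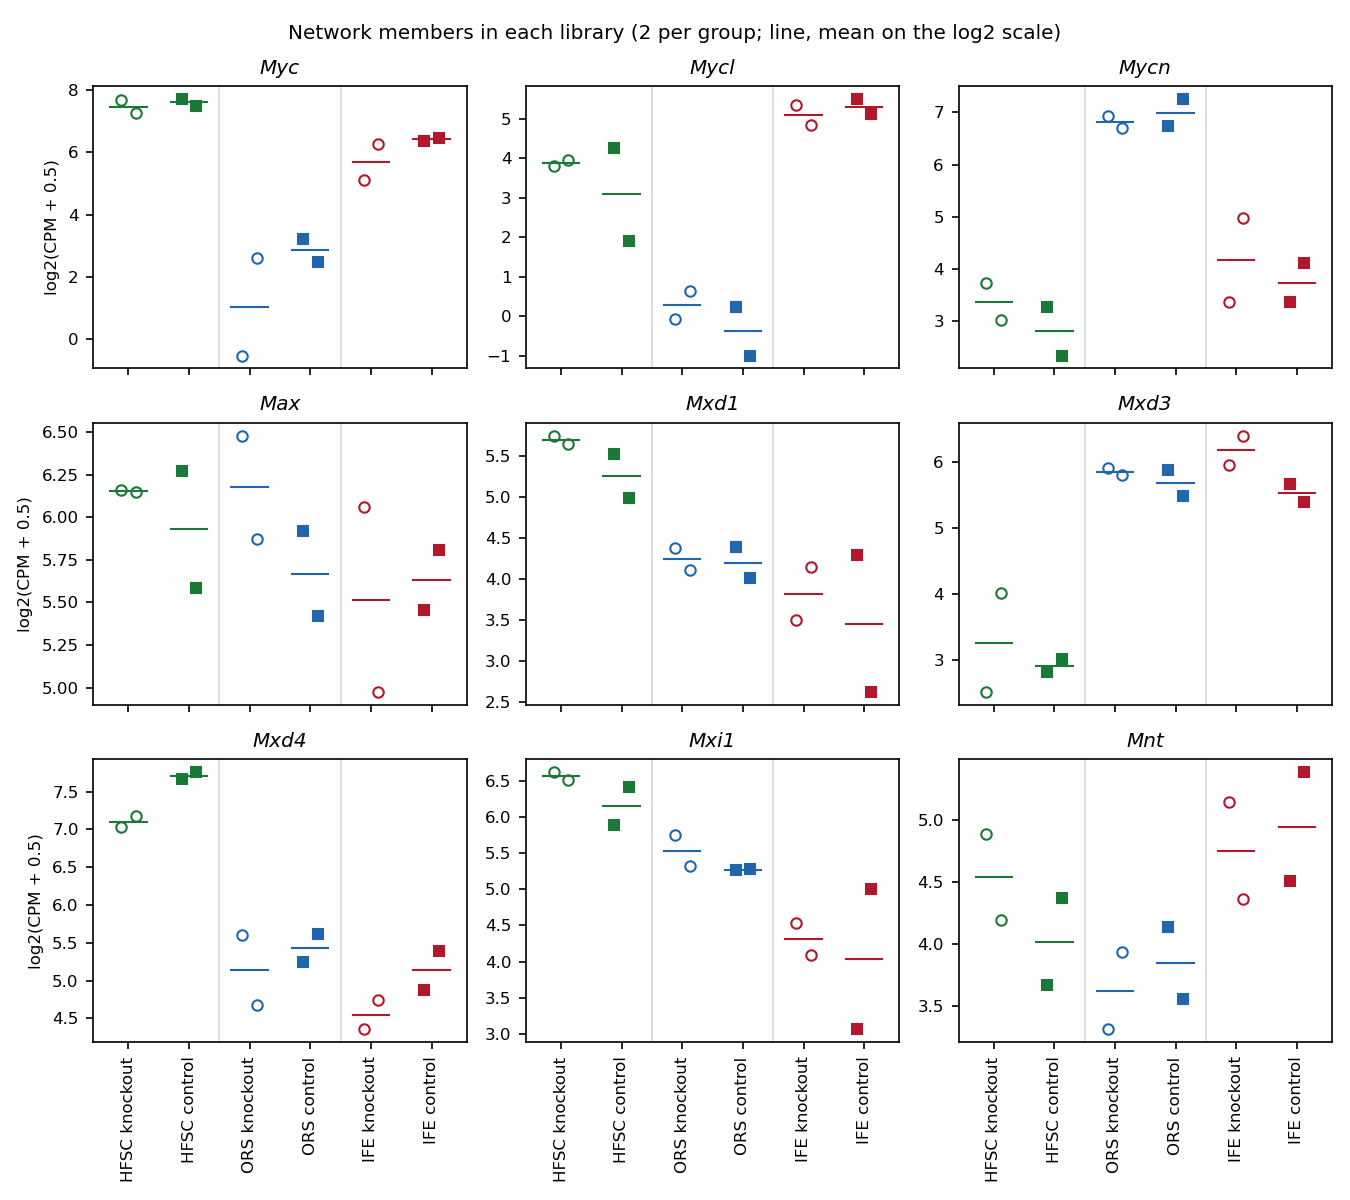
Level of each of the 9 genes in each library as log2(CPM + 0.5), with the 6 groups along the x axis (open circles, knockout; filled squares, control; lines, group means on the log2 scale; each panel has its own y range). Myc and Mycn run in opposite directions between ORS and the other compartments, and Max lies within 30.9 to 88.8 CPM in all 12 libraries.

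The RefSeq promoter table (GRCm38.p6, the mm10 assembly) held entries for 8 of the 9 genes. Mycn is shown because it set ORS apart, and its capitals mark TTCGCGC or TTGGCGC, the core of sites bound by E2F factors, searched on both strands. This motif was in 3.89% of 32851 promoters of the same length. Mycn, with 3 matches of which 2 share bases, was the only one of the 8 genes with it. The stretch is chr12:12941837-12942086, read from the minus strand and ending at the base before the RefSeq start, which lies inside the gene bounds given above, taken from the deposited data.
Mycn: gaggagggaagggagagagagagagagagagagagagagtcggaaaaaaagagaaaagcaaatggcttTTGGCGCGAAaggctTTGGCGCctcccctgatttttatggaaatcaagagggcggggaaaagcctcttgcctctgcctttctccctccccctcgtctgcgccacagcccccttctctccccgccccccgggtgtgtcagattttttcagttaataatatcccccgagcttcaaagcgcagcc
A match is a description of the letters and not a measured site of binding.

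Max (chromosome 12, 76937269 to 76962248, minus strand), the obligate partner, differed little. It had 71.2 and 70.6 CPM in HFSC knockout libraries L95 and L97, and 47.5 and 76.8 CPM in HFSC controls L94 and L136. It had 88.8 and 58.0 CPM in ORS knockout libraries E358 and E359, and 60.0 and 42.3 CPM in ORS controls E341 and E344. It had 66.2 and 30.9 CPM in IFE knockout libraries E358 and E359, and 43.3 and 55.6 CPM in IFE controls E341 and E360. All compartments overlapped. The 95% interval of the log2 fold change was -0.51 to 0.75 for HFSC against ORS, -0.16 to 1.10 for HFSC against IFE and -0.35 to 1.05 for ORS against IFE, and none passed the threshold. The sign for HFSC against ORS turned with the scaling, as given in the closing section.

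Among the MAX partners that repress, Mxd4 and Mxd3 were the most divided between HFSC and the other compartments. Mxd4 (chromosome 5, 34173887 to 34187720, minus strand) had 130.7 and 144.0 CPM in HFSC knockout libraries L95 and L97, and 215.9 and 202.5 CPM in HFSC controls L94 and L136. It had 48.0 and 25.0 CPM in ORS knockout libraries E358 and E359, and 37.6 and 48.6 CPM in ORS controls E341 and E344. It had 20.1 and 26.3 CPM in IFE knockout libraries E358 and E359, and 28.9 and 41.7 CPM in IFE controls E341 and E360. Every HFSC library lay above every other library, and ORS and IFE overlapped. HFSC differed from ORS by a log2 fold change of 2.12 ± 0.25 (adjusted p = 7.2e-05, limma) and from IFE by 2.56 ± 0.25 (adjusted p = 1.24e-05).

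Mxd3 (chromosome 13, 55325168 to 55329758, minus strand), a member known in mice from cells in S phase, ran the other way. It had 5.21 and 15.7 CPM in HFSC knockout libraries L95 and L97, and 7.57 and 6.55 CPM in HFSC controls L94 and L136. It had 59.1 and 54.9 CPM in ORS knockout libraries E358 and E359, and 58.1 and 44.1 CPM in ORS controls E341 and E344. It had 61.4 and 83.6 CPM in IFE knockout libraries E358 and E359, and 50.1 and 41.5 CPM in IFE controls E341 and E360. HFSC lay below the other compartments without overlap, and ORS and IFE overlapped. Its log2 fold change was -2.67 ± 0.34 for HFSC against ORS (adjusted p = 0.000118, limma) and -2.76 ± 0.34 for HFSC against IFE (adjusted p = 6.16e-05). Exons of Mxd3 overlap those of Prelid1 on the opposite strand, and whether the counting used strand is not given in the sources used here. Prelid1 had 956 to 4319 reads per library, so the separate values of Mxd3 are uncertain. Prelid1 averaged 107.3 and 85.7 CPM in HFSC knockout and control libraries, 129.2 and 147.9 CPM in ORS, and 254.3 and 218.8 CPM in IFE. Like Mxd3, it was thus lowest in HFSC on average, and its part in the Mxd3 values was not tested. Exons of Mxd4 are likewise overlapped by Gm42846 on the opposite strand. That gene is not among the genes listed, so its reads are not known and the part it has in the Mxd4 values was not tested. Exons of Mxi1 are overlapped by Gm10197 on the opposite strand, which had 0 to 57 reads per library.

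Mxi1 (chromosome 19, 53310506 to 53375810, plus strand), another MAX-binding repressor, had 97.8 and 90.7 CPM in HFSC knockout libraries L95 and L97, and 85.2 and 59.0 CPM in HFSC controls L94 and L136. It had 53.2 and 39.4 CPM in ORS knockout libraries E358 and E359, and 37.9 and 38.4 CPM in ORS controls E341 and E344. It had 22.8 and 16.5 CPM in IFE knockout libraries E358 and E359, and 7.89 and 31.6 CPM in IFE controls E341 and E360. The compartments were ordered HFSC, ORS and IFE without overlap. The log2 fold change passed the threshold for HFSC against IFE (2.19 ± 0.37, adjusted p = 0.00069, limma). It did not for HFSC against ORS (0.96 ± 0.37, adjusted p = 0.0738) or for ORS against IFE (1.23 ± 0.44, adjusted p = 0.0842).

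Mxd1 (chromosome 6, 86647044 to 86669159, minus strand), the repressor known from differentiating cells, had 53.5 and 49.8 CPM in HFSC knockout libraries L95 and L97, and 31.2 and 45.8 CPM in HFSC controls L94 and L136. It had 20.2 and 16.8 CPM in ORS knockout libraries E358 and E359, and 20.4 and 15.6 CPM in ORS controls E341 and E344. It had 10.8 and 17.2 CPM in IFE knockout libraries E358 and E359, and 19.1 and 5.62 CPM in IFE controls E341 and E360. HFSC lay above the rest, and ORS and IFE overlapped. Tested by limma, the log2 fold change was 1.84 ± 0.40 for HFSC against IFE (adjusted p = 0.00328, limma) and 1.26 ± 0.40 for HFSC against ORS (adjusted p = 0.0321). The second call was lost when any 1 of the 8 HFSC and ORS libraries was left out (adjusted p up to 0.114).

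Mnt (chromosome 11, 74830920 to 74845725, plus strand), the broadly expressed member of the group, had 29.0 and 17.8 CPM in HFSC knockout libraries L95 and L97, and 20.1 and 12.2 CPM in HFSC controls L94 and L136. It had 9.48 and 14.8 CPM in ORS knockout libraries E358 and E359, and 17.1 and 11.3 CPM in ORS controls E341 and E344. It had 34.8 and 20.1 CPM in IFE knockout libraries E358 and E359, and 22.3 and 41.2 CPM in IFE controls E341 and E360. IFE lay above ORS without overlap, HFSC overlapped both, and no difference passed the threshold. The nearest was ORS against IFE at -1.11 ± 0.42 (adjusted p = 0.1, limma).

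The E-box CACGTG, which reads the same on both strands, was present once in the promoters of Mxd4, Max and Mnt among the 8 genes with an entry, and in 7.15% of the 32851 promoters. Mxd4 and Max are shown because both are network genes with the letters that the network's own dimers bind, and capitals mark the E-box. The Mxd4 stretch is chr5:34187711-34187960 on the minus strand, ending at the base before the RefSeq start, which again lies inside the deposited bounds given above. The Max stretch is chr12:76962246-76962348 on the minus strand, in which the E-box spans the start, and it ends with the E-box.
Mxd4: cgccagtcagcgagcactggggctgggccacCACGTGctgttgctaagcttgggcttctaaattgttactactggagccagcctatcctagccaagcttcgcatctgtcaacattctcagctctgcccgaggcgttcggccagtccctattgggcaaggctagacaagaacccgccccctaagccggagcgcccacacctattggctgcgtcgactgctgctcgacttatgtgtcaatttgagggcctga
Max: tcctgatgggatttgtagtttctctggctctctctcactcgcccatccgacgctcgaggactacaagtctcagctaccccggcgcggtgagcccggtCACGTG
The AP-1 motif TGANTCA, searched on both strands, was in none of the 8 genes' promoters and in 7.81% of all promoters. Among the genes with the E-box, Mxd4 had differences between compartments that passed the threshold, and Max and Mnt had none. Whether the E-box bears on these levels was not tested.

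In HFSC against ORS, 6 of the 9 genes passed the test, against 28.7% of all 15251 genes tested. Of these, Myc, Mycl, Mxd1 and Mxd4 were higher in HFSC, a direction called for 14.3% of all genes, and Mycn and Mxd3 were lower, a direction called for 14.4%. In HFSC against IFE, 5 of 9 passed, against 36.1% of 15251 genes. Mxd1, Mxd4 and Mxi1 were higher (19.9% of all genes) and Mycl and Mxd3 lower (16.1%). In ORS against IFE, 3 of 9 passed, against 15.8% of 14449 genes. Mycn was higher (8.53% of all genes) and Myc and Mycl lower (7.25%). These comparisons share libraries in pairs, so their counts are not independent of each other. Compartment also coincides with features of the libraries. HFSC titles open with the letter L and the others with E, and ORS libraries have nearly double the share of reads in genes, so these cannot be told apart from the compartment.

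On the deposited values, which are scaled to the library total without TMM, the median of all genes for ORS against IFE was 1.11, against 0.13 with TMM, and for HFSC against ORS it was -0.91, against 0.03. With that scaling 6644 genes were called higher and 469 lower in ORS against IFE, in place of 1232 and 1048, and 1046 higher and 6389 lower in HFSC against ORS, in place of 2185 and 2196. Calls among the 9 genes rose to 8 in ORS against IFE, and none of the calls made with TMM changed direction.

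**Figure D2:**
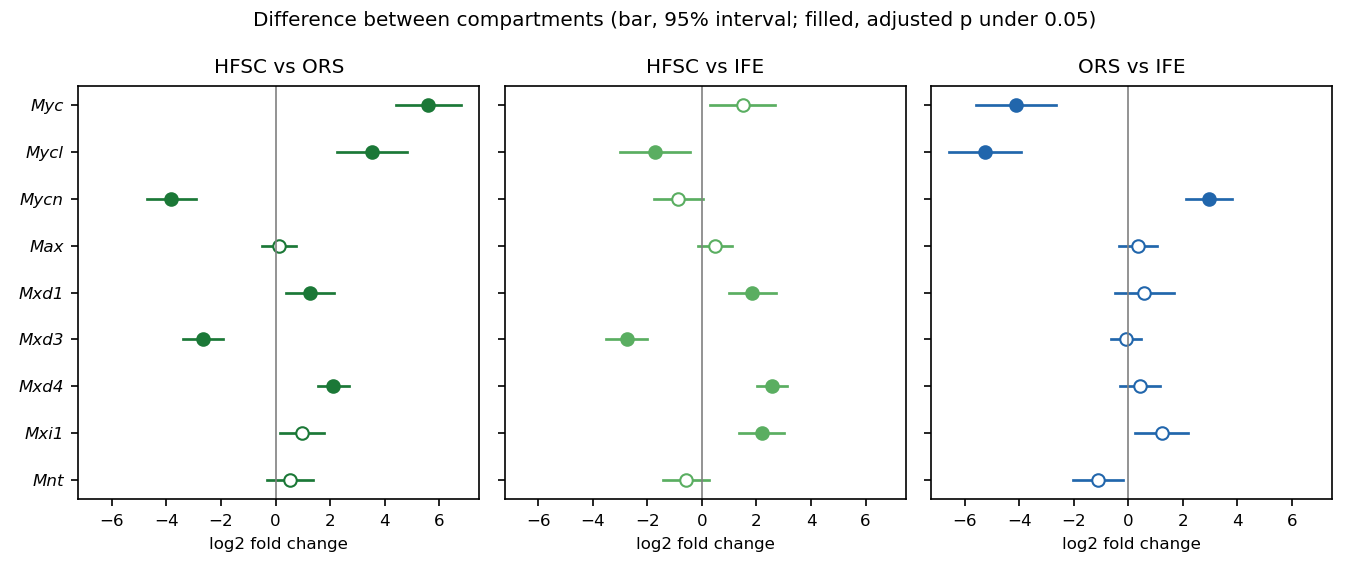
Log2 fold change between compartments for each of the 9 genes (points), with 95% intervals (bars) and filled points for adjusted p under 0.05. Mycn is on the opposite side of 0 from Myc and Mycl in the panels of HFSC against ORS and ORS against IFE, and the interval of Max includes 0 in all 3 panels.

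Levels of different genes were set side by side per length, as CPM per kb of exon in the GENCODE annotation, which assumes even coverage of the transcripts. Myc made up 90.5% to 96.8% of the summed level of the 3 MYC paralogs in HFSC, 0.184% to 9.09% in ORS and 49.3% to 70.7% in IFE. Mycn made up 2.01% to 4.68% in HFSC, 90.4% to 99.5% in ORS and 6.73% to 21.1% in IFE. Mycl made up 1.17% to 5.88% in HFSC, 0% to 0.775% in ORS and 15.7% to 39.0% in IFE. In CPM, not divided by length, Mycl exceeded Myc in IFE knockout E358 (47.7% and 40.6%). The sum of the paralogs was 74.7 ± 10.8 CPM per kb in HFSC, 38.7 ± 6.56 in ORS and 40.1 ± 9.75 in IFE (SD, n = 4 each). The sums in ORS (33.8 to 48.3) and IFE (25.5 to 46.0) overlapped although different paralogs made them up, except that IFE knockout E358, at 25.5, lay below every ORS library. HFSC (62.9 to 85.2) lay above both.

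The repressive partners Mxd1, Mxd3, Mxd4, Mxi1 and Mnt summed to 47.0 ± 2.39 CPM per kb in HFSC, 39.1 ± 3.85 in ORS and 39.6 ± 6.15 in IFE (SD, n = 4 each). In CPM the sum was 330.0 ± 20.4 in HFSC, 167.4 ± 17.2 in ORS and 150.8 ± 16.2 in IFE, so the excess in HFSC is larger without the division by length. Mxd4 was the largest of them in each HFSC library (33.7% to 53.8%), and Mxd3 was 4.81% to 13.8% there. Mxd3 was the largest in each ORS library (53.8% to 61.9%) and in each IFE library (47.7% to 74.2%). Mxd4 was 7.87% to 16.5% in ORS and 5.81% to 13.4% in IFE. The overlaps of Mxd3 with Prelid1 and of Mxd4 with Gm42846, given above, leave these shares uncertain. In CPM, not divided by length, Mxd4 exceeded Mxd3 in ORS control E344 (30.8% and 27.9%) and was level with it in IFE control E360 (25.8% and 25.7%). The MYC paralogs were 61.2% ± 4.49 of the summed level of all 8 MAX partners in HFSC, 49.6% ± 5.82 in ORS and 49.9% ± 8.49 in IFE. The order of this share also depends on the division by length, since in CPM the share was 38.6% in HFSC, 42.9% in ORS and 44.8% in IFE. Max stood at 18.5 ± 3.60 CPM per kb in HFSC, 17.3 ± 5.38 in ORS and 13.6 ± 4.24 in IFE, below the sum of its partners in every library.

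**Figure D3:**
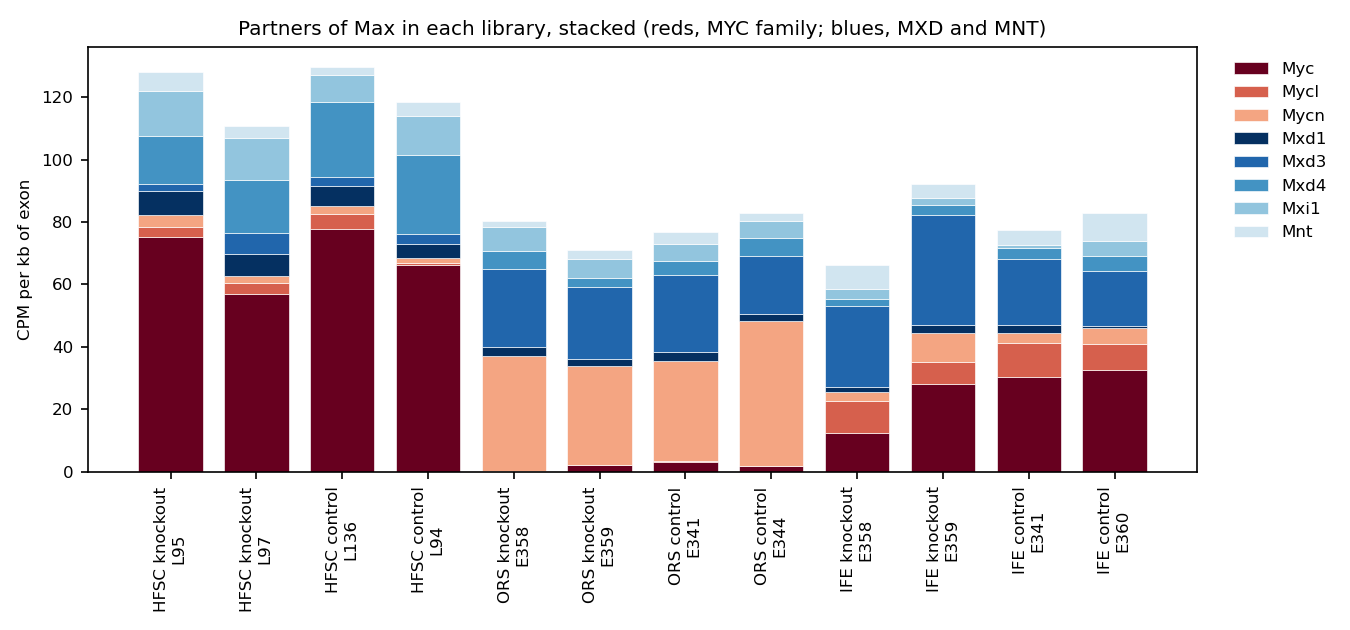
CPM per kb of exon of the 8 partners of Max in each library, stacked (reds, MYC paralogs; blues, MXD genes and Mnt; x axis, group and library). The red part is nearly all Myc in HFSC, nearly all Mycn in ORS and a mixture in IFE, and the largest blue part is Mxd4 in HFSC and Mxd3 in ORS and IFE. The Mxd3 part may hold reads of the overlapping gene Prelid1.

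Between knockout and control libraries, none of the 9 genes passed the test in any compartment. Egfr itself did not pass either, at log2 fold changes of -0.3 in HFSC, -4.1 in ORS and -7.72 in IFE. A near-complete loss of a transcript could thus go uncalled, and a missing call does not show that a gene was unchanged. In HFSC 0.0363% of 13778 genes were called, 5 in all of which 4 were sex-linked markers, in ORS 0% of 14449 and in IFE 0% of 14449. At an unadjusted p under 0.05, limma gave 1052 genes in HFSC, 491 in ORS and 1088 in IFE, and limma-voom called 0 in each compartment. With 2 libraries a group the intervals were wide. For Myc the log2 fold change was -0.13 (95% interval -0.61 to 0.34) in HFSC, -1.81 (-3.87 to 0.25) in ORS and -0.73 (-2.79 to 1.33) in IFE. Myc was lower in both IFE knockout libraries than in both controls, and the groups overlapped in HFSC and ORS. In ORS the library with least Myc, E358 with 0.186 CPM, was also the one with least Egfr and with the fewest genes with reads.

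Mxd4 had the only unadjusted p under 0.05 among the 27 tests of the 9 genes. It was lower in both HFSC knockout libraries than in both controls, with means of 137.3 ± 9.44 and 209.2 ± 9.45 CPM (SD, n = 2 each), and the log2 fold change was -0.61 ± 0.17 (unadjusted p = 0.0089, adjusted p = 0.503, limma). The fitted values in the other compartments were -0.30 in ORS and -0.59 in IFE, and the groups did not overlap in IFE. The groups also did not overlap for Mxd1 (0.44) and Mxi1 (0.41) in HFSC, for Mxi1 (0.26) in ORS and for Mxd3 (0.65) in IFE, each higher in the knockout libraries. Groups of 2 libraries often separate with no effect present, and the share of all genes that did so was not counted. The separations given here and above, those of Myc and Mxd4 included, are therefore not read as effects of the knockout. For Mycn the 95% intervals were -0.78 to 1.93 in HFSC, -1.38 to 1.01 in ORS and -0.76 to 1.63 in IFE, so a change of the size seen between compartments lay outside them. The difference of knockout effects between compartments was tested with an interaction term, and 0% of genes were called for ORS minus IFE, 0% for HFSC minus IFE and 0% for HFSC minus ORS. At an unadjusted p under 0.05 these held 690, 1110 and 682 genes, none of them among the 9, and limma-voom called 0, 0 and 2 genes. Sex coincides with genotype in part. Xist averaged 3.54 CPM in HFSC knockout libraries and 587.7 CPM in HFSC controls, and 1605 CPM in IFE knockout libraries and 1.92 CPM in IFE controls, so genotype cannot be separated from sex there and the 2 cannot be told apart. In ORS, Xist and 4 Y-linked genes together summed to 423.4 CPM in control E341 and 1595 CPM in control E344. Of these 5 genes, 5 and 3 had reads in the 2 controls. The same sum was 1631 and 1444 CPM in ORS knockout libraries E358 and E359. It mixes genes of both sexes, so it does not give the sex of a library. Control E341 lay below the other ORS libraries in it, so sex may in part be mixed with genotype in ORS too.

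**Figure D4:**
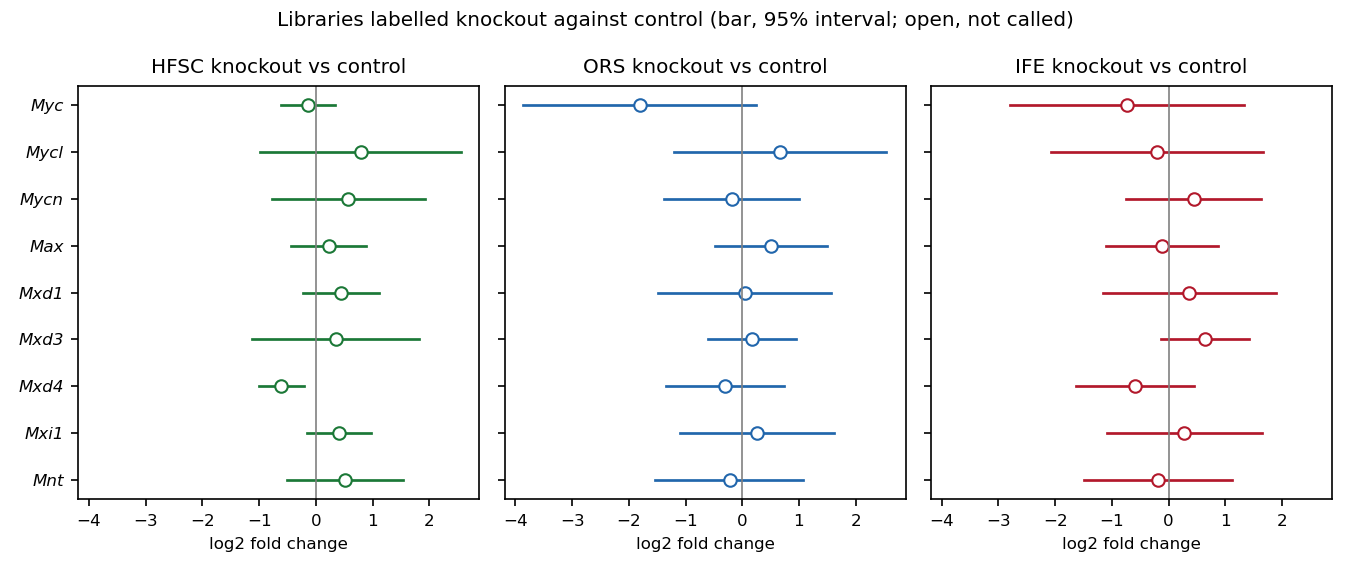
Log2 fold change of knockout against control libraries for each of the 9 genes (points) with 95% intervals (bars), open because no adjusted p was under 0.05. All intervals include 0 except that of Mxd4 in HFSC (-1.01 to -0.20).

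Genes most like a member in pattern were found by Pearson's r of log2(CPM + 0.5) over the 12 libraries, among 11274 tested genes averaging at least 5 CPM. The libraries share compartments, so r mainly follows the compartment means, and it is given as a description. Closest to Myc were Ahcyl2 (r = 0.994), Prss23, a serine protease (0.986), and Myof, a membrane repair protein (0.984). Prss23 averaged 878.2 CPM in HFSC knockout libraries and 687.1 CPM in HFSC controls, 4.68 and 14.0 CPM in ORS knockout and control libraries, and 132.8 and 172.2 CPM in IFE knockout and control libraries. Closest to Mycn were Psip1, a chromatin reader (0.968), Mtf2, a Polycomb accessory protein (0.951), and Srsf10, a splicing factor (0.950). Closest to Mxd3 were E2f7, an atypical E2F repressor (0.987), Hn1 (0.986) and Ccdc34 (0.981). E2f7 averaged 2.53 and 0.605 CPM in HFSC knockout and control libraries, 38.3 and 49.5 CPM in ORS, and 42.0 and 29.0 CPM in IFE, in the same order of genotypes. Closest to Mxd4 were Tacc2 (0.970), Plcg2, a phospholipase C (0.968), and Pmp22, a membrane protein known from myelin (0.962).

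Genes around the network were taken from lists of named genes and are described by counts. Of 20 partners and cofactors of the network, 5 were lower and none higher in HFSC against ORS, 3 were lower and 4 higher in HFSC against IFE, and none passed in ORS against IFE. Over all genes 14.4% were lower and 14.3% higher against ORS, and 16.1% lower and 19.9% higher against IFE. The counts against IFE are thus near the shares of all genes. Actl6a, a subunit of acetyltransferase and remodelling complexes, averaged 96.8 ± 32.5 CPM in HFSC, 292.4 ± 50.6 CPM in ORS and 284.0 ± 67.0 CPM in IFE (SD, n = 4 each). It was lower in HFSC against ORS (log2 fold change -1.63, adjusted p = 0.000333) and against IFE (-1.58, adjusted p = 0.000308, limma). The deacetylase Hdac2, which acts with the MXD repressors, was likewise lower against ORS (-1.54) and IFE (-1.22), and Hdac1 against ORS (-1.14). Mlxip, the glucose-sensing partner of Mlx, was higher in HFSC against IFE (1.76, adjusted p = 0.00408, limma). The medians of the partners were -0.11, -0.12 and 0.24 for HFSC against ORS, HFSC against IFE and ORS against IFE, beside 0.03, 0.18 and 0.13 for all genes. On the deposited values 13 of the partners were lower in HFSC against ORS and 14 higher in ORS against IFE, so these 2 counts follow the scaling.

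Of 14 genes acting on MYC protein stability, 6 were lower and none higher in HFSC against ORS and likewise against IFE, and 2 were higher and none lower in ORS against IFE. Over all genes 14.4% were lower in HFSC against ORS and 16.1% against IFE, and 8.53% were higher in ORS against IFE. The kinase Aurka, which stabilises MYCN protein, averaged 7.18 ± 4.54 CPM in HFSC, 97.5 ± 9.39 CPM in ORS and 89.1 ± 25.0 CPM in IFE. Its log2 fold change was -3.83 for HFSC against ORS (adjusted p = 8.35e-06) and -3.67 for HFSC against IFE (adjusted p = 6.87e-06, limma). Skp2, a ubiquitin ligase subunit for MYC, was higher in ORS against IFE (1.61, adjusted p = 0.00801, limma) and lower in HFSC against ORS (-2.75). Cip2a, an inhibitor of the phosphatase that destabilises MYC and listed as C330027C09Rik, averaged 9.75 CPM in HFSC, 152.8 CPM in ORS and 79.3 CPM in IFE. Fbxw7, the ligase that recognises phosphorylated MYC, was lower in HFSC against ORS (-0.74, adjusted p = 0.00756, limma). The medians of the 14 were -0.35, -0.14 and 0.09 for HFSC against ORS, HFSC against IFE and ORS against IFE, beside 0.03, 0.18 and 0.13 for all genes. On the deposited values 13 were lower in HFSC against ORS and 11 higher in ORS against IFE, so these counts too follow the scaling. Proliferation genes were also lower in HFSC, as given below, and the part of that difference in these counts was not tested.

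Of 50 genes known to be activated by MYC, 29 were lower and 2 higher in HFSC against ORS, and 28 were lower and 2 higher in HFSC against IFE, although Myc itself was highest in HFSC. Over all genes 14.4% were lower and 14.3% higher against ORS, and 16.1% lower and 19.9% higher against IFE. The median log2 fold change of the 50 was -0.77 against ORS and -0.75 against IFE, beside 0.03 and 0.18 for all genes. Npm1, a nucleolar chaperone, averaged 275.8 ± 27.1 CPM in HFSC, 693.6 ± 90.9 CPM in ORS and 663.6 ± 56.5 CPM in IFE. Nme1, a nucleoside diphosphate kinase, averaged 78.4 ± 22.7 CPM in HFSC, 291.2 ± 42.9 CPM in ORS and 432.3 ± 22.4 CPM in IFE, and Cdk4, a cell cycle kinase, was lower in HFSC against ORS (-1.15, adjusted p = 6.67e-06, limma). The exceptions were Slc3a2, an amino acid transporter chain, with 220.6 ± 21.9 CPM in HFSC, 135.4 ± 10.6 CPM in ORS and 82.1 ± 6.44 CPM in IFE, together with Odc1 against ORS (1.11) and Hk2 against IFE (0.74). In ORS against IFE, where Mycn and Myc changed places, 5 of the 50 were higher and 4 lower, near the shares of all genes (8.53% and 7.25%). The median was 0, beside 0.13 for all genes. Ncl, Slc3a2, Hspd1 and Mybbp1a were among those higher, and Nme2, Tfrc, Nme1 and Srm were those lower, although on the deposited values 35 were higher and none lower. For HFSC, 28 against ORS and 27 against IFE were lower with median-of-ratios scaling, and 44 and 28 on the deposited values.

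Of 16 genes known to be repressed by MYC, 8 were higher and 2 lower in HFSC against ORS, and 7 were higher and 3 lower in HFSC against IFE. Over all genes 14.3% were higher and 14.4% lower against ORS, and 19.9% higher and 16.1% lower against IFE, so the 3 lower of 16 are near the share of all genes. Klf6, a growth-restraining transcription factor, averaged 333.0 ± 60.0 CPM in HFSC, 82.1 ± 19.2 CPM in ORS and 70.3 ± 24.9 CPM in IFE. Ndrg1 averaged 197.2 ± 23.3 CPM in HFSC, 31.2 ± 9.62 CPM in ORS and 22.3 ± 9.77 CPM in IFE. Cdkn1b, an inhibitor of cyclin-dependent kinases, was higher in HFSC against IFE (1.75, adjusted p = 1.65e-05, limma), and Cdkn1a, its relative, was lower (-1.47, adjusted p = 7.36e-05). Cdkn2b, another such inhibitor, had 10 to 27.8 CPM in HFSC and no read in the 4 ORS libraries. In ORS against IFE, 3 of 15 tested were higher and 4 lower, beside 8.53% and 7.25% of all genes. On the deposited values 5 were higher and 5 lower in HFSC against ORS, with a median of -0.42 in place of 0.57, and 8 were higher and 1 lower in ORS against IFE.

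Proliferation genes were lower in HFSC throughout, a direction called for 14.4% of all genes against ORS and 16.1% against IFE. All 20 passed the test in HFSC against ORS and against IFE, with median log2 fold changes of -3.59 and -3.14, and their summed level was 496.8 to 1301 CPM in HFSC, 5944 to 6322 CPM in ORS and 3167 to 4048 CPM in IFE. Ccnb2, a mitotic cyclin, averaged 8.54 ± 7.54 CPM in HFSC, 153.7 ± 7.51 CPM in ORS and 152.0 ± 26.8 CPM in IFE. In ORS against IFE 9 were higher and none lower, Mki67 among them with 943.0 ± 113.1 CPM in ORS and 435.2 ± 114.2 CPM in IFE (adjusted p = 0.000931, limma), and on the deposited values all 20 were higher (median 1.52, in place of 0.55). Myc and the proliferation genes were thus in opposite order in HFSC, and the part of this difference in cycling in the levels of the MYC targets was not tested. Of 12 immediate-early genes, a class that includes fast targets of growth factor signalling, 8 were higher and none lower in HFSC in each comparison, and on the deposited values 6 were higher against ORS and 7 against IFE. Jun averaged 273.1 ± 53.3 CPM in HFSC, 78.1 ± 20.3 CPM in ORS and 79.0 ± 22.6 CPM in IFE, and Ier3 averaged 316.2 ± 51.1 CPM in HFSC, 13.1 ± 4.07 CPM in ORS and 31.2 ± 15.8 CPM in IFE. In ORS against IFE 1 of 11 tested was higher, Egr2 (4.95, adjusted p = 0.000604, limma), and 2 were lower, Fos (-2.11) and Atf3 (-3.38), while the median of -0.78 became 0.10 on the deposited values. Over all genes 14.3% were higher in HFSC against ORS and 19.9% against IFE, and 8.53% were higher and 7.25% lower in ORS against IFE.

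**Figure D5:**
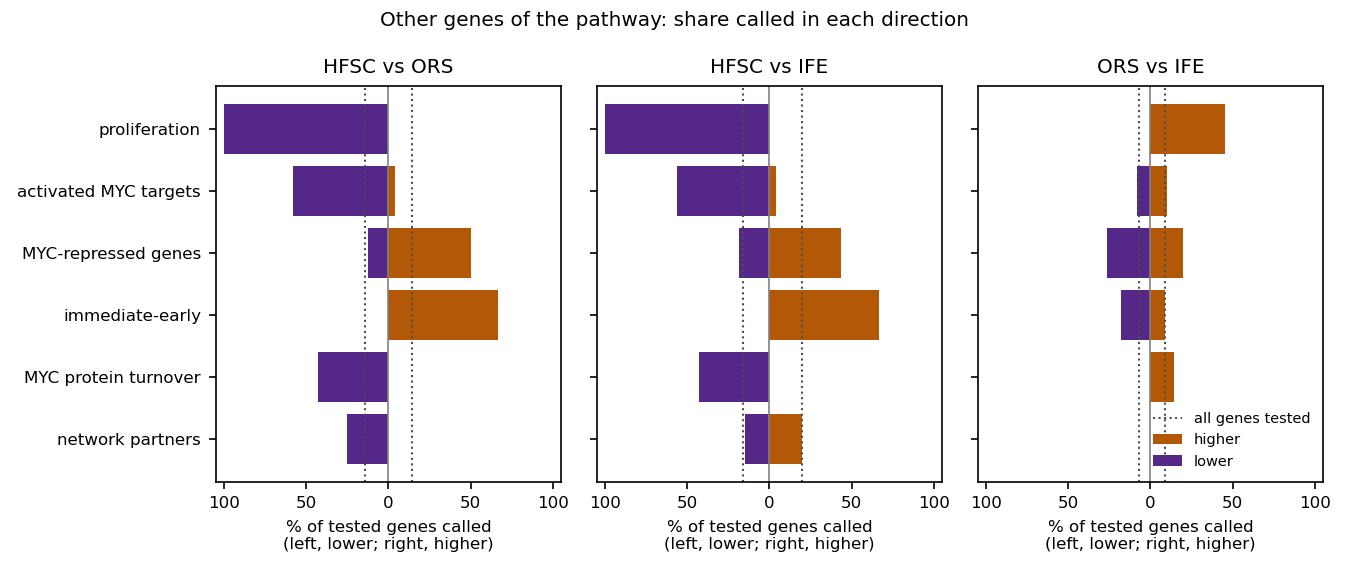
Percentage of the tested genes of each list that passed adjusted p under 0.05, lower to the left and higher to the right, in the 3 comparisons of compartments (dotted lines, the same percentage over all genes tested). Proliferation genes reach 100% lower in both HFSC panels, and immediate-early genes are called in the higher direction alone there.

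In the knockout comparisons none of the genes in these 6 lists passed the test in any compartment. The largest list, the 50 activated MYC targets, had medians of -0.06 in HFSC, -0.12 in ORS and 0 in IFE, beside 0.01, -0.03 and -0.03 for all genes. The immediate-early genes had medians of 0.06 in HFSC, -1.01 in ORS and -0.60 in IFE, and 3 of the 11 tested in ORS were lower at an unadjusted p under 0.05. Ccnd2, a cyclin and MYC target, averaged 467.5 ± 60.8 CPM in HFSC knockout libraries and 706.5 ± 67.3 CPM in HFSC controls (log2 fold change -0.60, adjusted p = 0.498, limma). In ORS it averaged 1207 ± 253.3 CPM in knockout libraries and 1746 ± 227.5 CPM in controls (-0.54, adjusted p = 1, limma), and in IFE 2029 ± 592.4 CPM in knockout libraries and 1912 ± 440.3 CPM in controls (0.07, adjusted p = 1, limma). Egr1, an immediate-early gene downstream of growth factor receptors, averaged 26.1 ± 8.73 CPM in ORS knockout libraries and 194.6 ± 59.1 CPM in ORS controls (log2 fold change -2.88, unadjusted p = 0.00208, adjusted p = 1, limma).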

How the data were processed

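Per the labels' protocols, RNA was taken up with a PicoPure kit and amplified with a SMARTer Ultra kit, without molecular identifiers named. The deposited tables hold log2 values, which the authors made as log2 reads per 1e6 of a library total, 1 table per library. Genes with no read carry the value that 0.9 read would have. Trim Galore, DESeq2 and mm10 are named in the submitters' processing notes, without roles. Not given in the sources used here are the aligner, the counter, the annotation and the use of strand. Whole reads were recovered from the deposited values (at least 99.993% of values whole within 0.2 reads). CPM was computed from them after TMM scaling over the 12 libraries (trims of 30% and 5%). Genes reaching the equivalent of 10 reads in a library of median size in 2 or more libraries, and 15 reads in total, were tested with limma 3.58.1 (R 4.3.3, statmod 1.5.0; trended, robust prior, two-sided) on log2(CPM + 0.5), with Benjamini-Hochberg adjustment. ORS and IFE (8 libraries) shared a fit, the 4 HFSC libraries were fitted alone, and all 12 were fitted for HFSC against ORS or IFE and for differences of effects involving HFSC. Compartment contrasts average both genotypes. The fits were also run on simulated counts with the same spread for all genes, which does not show how they perform on these libraries.

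The members and gene lists were chosen with earlier results of these data known. All 9 members are named. From other lists, up to 4 genes per direction and comparison with the smallest adjusted p could be named, or the 2 with the highest mean CPM where none passed, and not all of these are printed. The 3 nearest genes are given for the 4 members with the smallest adjusted p. No replicate pair agreed within sampling noise (chi-square of reads over its degrees of freedom, 43.0 to 144.6). The floor of 3 reads covers counting error only. Alternatives covered pseudocount, filter, scaling, test, the libraries fitted, genotype, the replicate block and each library left out.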

Additional observations from a re-analysis of the deposited data

How the results depend on the processing

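Counts of all called genes depended on the fit. In IFE knockout against control, 0 genes became 3 with a filter at 50 reads, 1 on the deposited values, 5 with that compartment alone and 24 with all 12 libraries. In HFSC knockout against control, 5 genes became 1 without a filter, 2 on the deposited values, 0 with limma-voom and 1 with all 12 libraries. For the difference of effects, HFSC minus IFE gave 1 with a pseudocount of 0.1 and 1 on the deposited values, and HFSC minus ORS gave 2 with limma-voom. ORS against IFE gave 7113 on the deposited values, 405 in knockout libraries alone and 1065 in controls alone. HFSC against ORS gave 7435, 1589 and 2661 in the same settings, and HFSC against IFE gave 2598 in knockout libraries alone and 3662 in controls alone. These strata hold fewer samples. Among the 9 genes, ORS against IFE gave 8 calls on the deposited values and 1, Mycl, in knockout libraries alone, where Myc (adjusted p = 0.0842, limma) and Mycn (0.0599) missed the threshold. In CPM the MYC paralogs' share was 38.6% in HFSC and 42.9% in ORS. Myc in HFSC against IFE passed in 8 of 23 settings, Mycl there in 13 of 23 and Mxd1 in HFSC against ORS in 12 of 23. Signs turned on the deposited values for Mxd3 in ORS against IFE (0.88) and for Max (-0.87), Mxi1 (-0.02) and Mnt (-0.43) in HFSC against ORS. They also turned for Mxd3 in controls alone (0.15) and Max in knockout libraries alone (-0.02). Apart from the deposited values, whose construction shifts all genes, the cause was not tested.

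Leaving out 1 library at a time gave 0 to 53 calls for IFE knockout against control, 0 to 2 for ORS and 1 to 29 for HFSC. The 53, and the 92 below, came without IFE knockout E359, and HFSC gave 29 without L94, 19 without L136, 2 without L95 and 1 without L97. ORS against IFE gave 1208 to 2682, with 1265 without ORS control E341, 1208 without E344 and 1475 without ORS knockout E359. The differences of effects gave 0 to 2 (ORS minus IFE), 0 to 92 (HFSC minus IFE) and 0 to 6 (HFSC minus ORS). None of the 9 genes was called between genotypes in any setting run. Signs turned between compartments for Max in HFSC against ORS (-0.05 to 0.29) and Mxd3 in ORS against IFE (-0.20 to 0.02). They turned between genotypes in IFE for Mycl (-0.46 to 0.04), Mycn (-0.37 to 1.24), Max (-0.66 to 0.43), Mxd1 (-0.48 to 1.20), Mxi1 (-0.69 to 1.25) and Mnt (-0.63 to 0.24). In ORS they turned for Mycn (-0.45 to 0.08), Mxd1 (-0.14 to 0.24), Mxd3 (-0.03 to 0.36), Mxd4 (-0.76 to 0.17) and Mnt (-0.53 to 0.08). In HFSC they turned for Myc (-0.34 to 0.07), Mycl (-0.39 to 1.97), Max (-0.11 to 0.57) and Mxd3 (-0.40 to 1.10).

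With the title number as a replicate block, ORS against IFE gave 2580 genes and the same 3 of the 9 genes, and the difference of effects gave 0. Deviations of libraries with the same number correlated at 0.049 and 0.056, so the numbers are not shown to pair the libraries. Computing TMM within the libraries fitted moved no call among the 9 genes. This setting and the recount of the gene lists under other scalings were chosen after seeing the data. The planned quasi-likelihood test of edgeR and the Wald test of DESeq2 were not run, since the deposited unit is log2, and size factors by median of ratios stood in for those of DESeq2. The planned permutation test of the paralogs' share was not run, since the share is a score over chosen genes. Depth limits Mycl and Myc in ORS, with 0 to 28 and 5 to 247 reads.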

Other observations

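The libraries numbered E358 held the least Myc in both compartments in which the number occurs, with 0.186 CPM in ORS and 34.2 CPM in IFE, while Max was highest in E358 in both (88.8 CPM in ORS and 66.2 CPM in IFE). Within IFE, E359 held the most Mycn (31.0 CPM) and the most Mxd3 (83.6 CPM) and the least Max (30.9 CPM). The E358 libraries also had the fewest genes with reads in their compartments. These were 13653 in ORS, where the others had 14559 to 14778, and 12702 in IFE, where the others had 13246 to 13887. No label explains what the numbers share.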
